A study of Homo sapiens with 6 samples.

Results

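Transcripts annotated as retaining an intron were followed in TCam-2 cells, an established line from a human testicular seminoma. The members are the transcripts of the deposited TPM table that GENCODE 29 types as retained_intron and that reached 1 TPM in at least 2 of 6 libraries. They numbered 4771 transcripts of 2832 host genes, out of 27900 transcripts of that type and 251955 transcripts of all types in the table. They were chosen by their TPM values, so their presence is a description. Of all transcripts, 44693 passed the same minimum. TPM gives the abundance of a transcript relative to all transcripts of its library, corrected for length. It is an estimate that divides reads among overlapping transcripts of a gene. In bulk libraries a lower level in each cell and fewer cells with the transcript cannot be told apart.

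The design had 3 groups of 2 libraries of polyA RNA. WT cells were not transduced, GFP cells were transduced to overexpress GFP_FLAG, and RBMXL3 cells to overexpress RBMXL3_FLAG, where FLAG is a short protein tag. The vector, its promoter and whether clones were picked are not given in the sources used here. RBMXL3 is an RNA-binding protein related to RBMX, and the study's stated purpose was to find genes that change in expression or splicing when it is overexpressed. Nothing says that the 2 libraries of a group came from separate cultures, so p-values measure the spread between these libraries, which may be technical. RBMXL3 itself was at 0 normalised reads in all 4 control libraries and at 108 and 72.7 in the RBMXL3 libraries.

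Gene-level reads per library ran from 17685680 to 29318007, and the RBMXL3 libraries were the shallowest. All 8 TCam-2 marker genes were above 100 normalised reads in every library, and the 3 leukocyte genes were under 10 in every library. Of the fibroblast genes 3 of 4 (COL1A1, COL1A2 and THY1) were above 100 in every library, as was KRT19 of the embryonal carcinoma genes. Of these marker genes KIT was lower and SOX9 higher with RBMXL3 against both controls. Reads on 32 genes that lie opposite a gene 100 times more abundant made up 0.291% to 0.468% of reads in the controls and 0.043% and 0.0369% in the RBMXL3 libraries. The part of this difference between libraries in the values below was not tested.

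Splicing removes introns at a donor site, usually GT at the start of the intron, and an acceptor site, usually AG at its end. A transcript that keeps an intron is often held in the nucleus, or is degraded by nonsense-mediated decay once a stop codon in the intron is read. In GENCODE the retained_intron type marks a transcript with sequence that is intronic in coding transcripts of the same gene. It also covers fragments whose first or last exon simply ends inside an intron.

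Both kinds of member are shown here by the sequences that define them, from the GENCODE 29 transcripts on GRCh38. The first set holds introns that a member spans from end to end, each between coding exons, with 10 exon bases on each side and the GT and AG in capitals. BMI1-206 spans intron 6 of 9 of BMI1-201, at chr10:22328059-22328133 on the plus strand, which is 75 bases long with a GC content of 20.0%. CHD1-211 spans intron 27 of 35 of CHD1-212, at chr5:98872202-98872416 on the minus strand, which is 215 bases long with a GC content of 25.6%. In both introns a stop codon in the reading frame of the upstream exon starts at intron base 2, TAA in BMI1 and TGA in CHD1.
BMI1-206: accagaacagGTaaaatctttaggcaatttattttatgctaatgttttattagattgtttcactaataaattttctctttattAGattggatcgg
CHD1-211: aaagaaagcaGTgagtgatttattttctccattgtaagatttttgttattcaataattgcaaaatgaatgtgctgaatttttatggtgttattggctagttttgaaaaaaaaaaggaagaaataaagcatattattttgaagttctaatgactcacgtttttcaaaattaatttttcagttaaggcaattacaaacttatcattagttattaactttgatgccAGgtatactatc

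PSMA1-208 spans a longer intron, intron 5 of 9 of PSMA1-201 at chr11:14513888-14514402 on the minus strand. It measures 515 bases, and its first in-frame stop codon, TGA, starts at intron base 48. Its donor and acceptor sites are given with 15 bases on each side.
PSMA1-208 donor: ctctaattggaagcaGTatcctttttatgt
PSMA1-208 acceptor: gttaaccagtctaAGagacccagataccaa

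The second set holds sites that a member runs across without reaching the other end of the intron, which is the form of most members with a changed level. Each line has up to 15 bases on each side of the site, with the GT of a donor or the AG of an acceptor in capitals. The introns are at chr11:95817904-95818826 (plus strand) for CEP57, chr5:31422945-31424426 (minus) for DROSHA and chr12:52902073-52904657 (minus) for KRT8. Those of the members that were higher with RBMXL3 are at chr11:32589642-32593865 (plus) for EIF3M and chr7:76058079-76060372 (plus) for MDH2. The bases that the member keeps from the intron number 129 in CEP57-215, 377 in DROSHA-213, 132 in KRT8-211, 97 in EIF3M-204 and 97 in MDH2-206.
CEP57-215 donor: caggcccttgcagaaGTcagtgcatgtgtc
DROSHA-213 acceptor: tctattttcctgtAGctacaagagccaaat
KRT8-211 acceptor: tcctccttcgtatAGgtacggttcctggag
EIF3M-204 acceptor: aatatttctttttAGtgatgctgcttcaaa
MDH2-206 donor: gtcattgccaatccgGTgagtgtggcagca

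Read against the coding transcripts of their genes, 1677 members (35.1%) spanned at least 1 whole intron, and 1405 (29.4%) spanned one with no base in an exon of any coding transcript. The other 3094 spanned none. Of these, 1489 had only a first exon that starts inside an intron and runs across the acceptor, and 1134 had only a last exon that runs past a donor. A further 285 had both forms and 186 had neither. Members were short, with a median length of 786 bases against 2035 for coding transcripts that passed the same minimum. A median of 27.6% of a member's length lay outside exons of coding transcripts. The version number of 4650 members was the same in the table and in GENCODE 29.

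**Figure D1:**
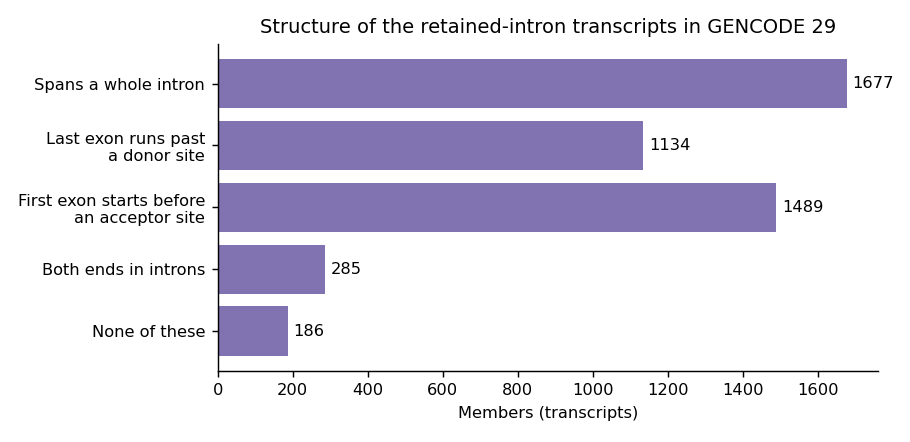
Number of members (x axis, transcripts) in each structural class in GENCODE 29. Members that span a whole intron number 1677, and those whose first exon starts before an acceptor site only number 1489.

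The 1998 distinct whole introns had a median length of 217 bases and a median GC content of 57.7%. GT and AG ended 1937 of them (96.9%), GC and AG ended 29, and AT and AC ended 12. The 12 AT-AC introns lay in 12 genes, among them DDB1, a subunit of a ubiquitin ligase, and E2F4, a transcription factor of the cell cycle. Of 1803 introns between coding exons, 1480 (82.1%) held a stop codon in the upstream frame. The introns with such a stop had a median length of 258 bases and those without one 94 bases. Small nucleolar, Cajal body or microRNA genes lay inside 48 of the introns. RBM39, which encodes a splicing factor, had the most members of any gene, with 13.

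Most members were scarce. Their mean TPM over the 6 libraries had a median of 1.69 and quartiles of 0.998 and 3.84, and 1556 reached 1 TPM in all 6 libraries. Some passed through 1 group alone: 213 only in both RBMXL3 libraries, 69 only in both WT libraries and 38 only in both GFP libraries. These were not counted over all transcripts, so they are no trait of the members. At any level, both RBMXL3 libraries lay above the other 4 for 20.5% of members, beside 21.4% of all transcripts. For WT this held for 6.54% beside 10.9%, and for GFP for 3.48% beside 4.07%. Just inside the minimum, RPS6KA4-208 had a second-highest TPM of 1.0007 over the libraries. Just outside it, RAB11FIP3-210 had 0.999974. In the median host gene the members made up 8.29% of the gene's TPM, and in 158 genes at least 50%.

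Of the 10 members with the highest mean TPM, 1, RPL8-204, passed the test described below. RPS23-203, from the gene of a small-subunit ribosomal protein, stood at 1159 and 1262 TPM (WT), 1082 and 1452 (GFP), and 1401 and 1307 (RBMXL3). OAZ1-208, from the gene of ornithine decarboxylase antizyme, stood at 929 and 946, 914 and 1067, and 1037 and 1090 TPM. In both, GFP overlapped the other groups, and both RBMXL3 libraries lay above both WT libraries. Neither passed the test. RPL14-208 (898.9 and 1004 TPM in WT, 878 to 1072 over the other 4 libraries) made up 88.3% to 93.7% of its gene's TPM, although only 1.6% of its length lies outside coding exons. RPL4-203 and RPL4-205, 2 members of a gene that hosts small nucleolar RNAs, lay on opposite sides. RPL4-203 stood at 670, 617, 576 and 771 TPM in the controls and at 1081 and 997 in RBMXL3, while RPL4-205 stood at 1359, 878, 1051 and 918 and then at 815 and 784. Their RBMXL3 values lay outside the 4 controls, but neither passed the limma test described below (adjusted p of 0.138 and 0.518 against GFP, 0.119 and 0.358 against WT).

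EEF1A1-206, from the gene of translation elongation factor 1 alpha, had the highest mean of all members. It was estimated at 286 and 425 TPM (WT), 37.2 and 1051 (GFP), and 4421 and 4600 (RBMXL3). Both RBMXL3 libraries lay above every control, but the 2 GFP libraries differed widely and the member missed the threshold (adjusted p = 0.22 against GFP and 0.294 against WT, limma). The gene's own reads went the other way, with log2 changes of -0.54 against GFP (adjusted p = 0.0497) and -0.28 against WT (adjusted p = 0.252). The EEF1A1 transcripts with a GENCODE 29 entry carried 2.78% of the reads that the gene-level value calls for, where 100% is the median gene, so the member's share of its gene cannot be read. Its version in the table is also not that of GENCODE 29, so the structure it was estimated on may be another.

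Summed over all members, TPM made up 3.76% and 3.83% of the total in WT cells, 4.08% and 3.54% in GFP cells and 3.71% and 3.75% in RBMXL3 cells. The RBMXL3 libraries lay within the range of the controls. The difference was -0.073 percentage points (exact permutation test, two-sided, p = 0.6, with 0.0667 the smallest p that 2 against 4 libraries allow). Without GFP replicate 1 it was 0.019 points. Over the members that span a whole intron, a split made after the values were seen, the sum was 0.805%, 0.906%, 0.779% and 0.879% in the controls and 1.21% and 1.26% in RBMXL3. Without EEF1A1-206 the sums were 0.777%, 0.863%, 0.775% and 0.774%, and 0.770% and 0.797%. Over the members that span no whole intron the sum was 2.95%, 2.93%, 3.30% and 2.67% in the controls and 2.50% in both RBMXL3 libraries, below every control (a difference of -0.465 points, exact permutation test, two-sided, p = 0.133).

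**Figure D2:**
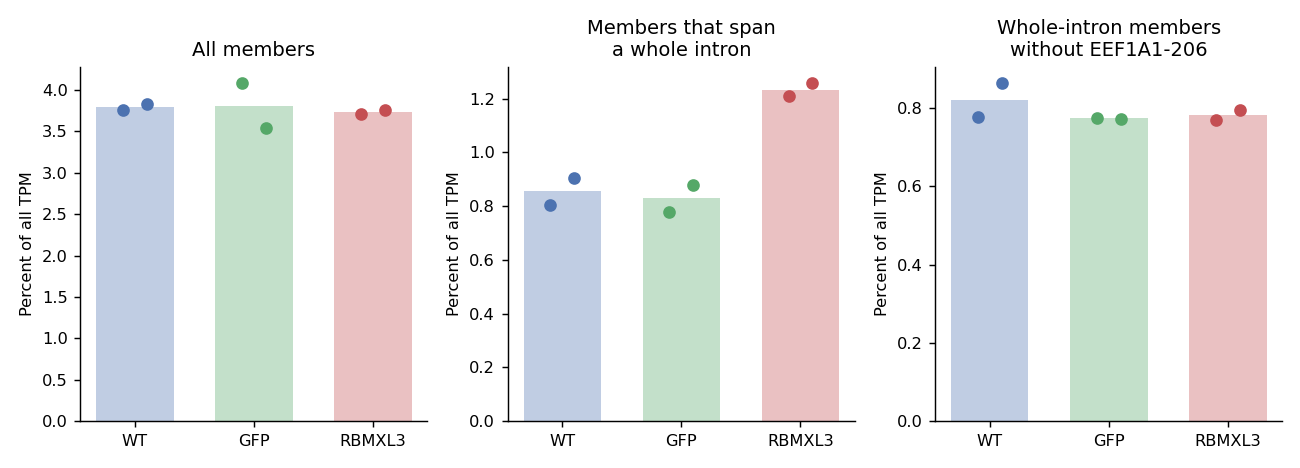
Summed TPM as a percent of all TPM (y axis) by group, for all members, for members that span a whole intron and for these without EEF1A1-206. Points are the 2 libraries of a group and bars their mean. Of the 3 panels, the RBMXL3 points stand apart from the controls in the middle one, at 1.21% and 1.26%.

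Levels were tested with limma on log2(TPM + 1) over all 44693 transcripts, with p-values adjusted by Benjamini-Hochberg and called under 0.05. Against GFP, 65 members changed, 26 higher and 39 lower with RBMXL3. That is 1.36% of members, beside 1.25% of all transcripts (0.562% higher and 0.685% lower). With quantile normalization the split was 20 higher and 47 lower, beside 225 and 342 of all transcripts. Against WT, 70 members changed, 20 higher and 50 lower, which is 1.47% beside 1.53% of all transcripts (0.613% and 0.92%). GFP against WT gave no call, for members or for any transcript (0.0% called). At an unadjusted p under 0.05 there were 332 of 4771 members, beside 3562 of 44693 transcripts. The members' median log2 difference was 0.22 against GFP, 0.10 against WT and -0.12 for GFP against WT, where all transcripts had 0.13, 0.03 and -0.10. The 2 comparisons of RBMXL3 share the RBMXL3 libraries.

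A WT library enters the comparison with GFP only through the spread that the 3 groups share in 1 fit. Over all transcripts the number called fell in every fit without 1 library, and so did these counts of members. Against GFP the count was 0 without RBMXL3 replicate 1 or RBMXL3 replicate 2, 2 and 4 without WT replicate 1 and 2, and 1 without GFP replicate 1. Against WT it was 0 without either WT library or either RBMXL3 library. A count of 0 in these fits, or in those below, does not mean that no member had a low unadjusted p. With all 6 libraries, 918 of 4771 members had an unadjusted p under 0.05 against GFP and 687 against WT. Over the 44693 transcripts the numbers were 8535 and 8216.

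Against both controls in the same direction, 49 members changed, 17 higher and 32 lower. This share of 1.03% stood beside 0.929% of all transcripts (0.371% higher and 0.557% lower). With a pseudocount of 0.1 the split was 8 higher and 45 lower, beside 105 higher and 367 lower of all 44693 transcripts. With no filter on low values 14 members changed, beside 126 of 130527 transcripts. As over all transcripts, the count of members depended on which libraries were in the fit. It was 0 without WT replicate 1, WT replicate 2, RBMXL3 replicate 1 or RBMXL3 replicate 2, 1 without GFP replicate 1, and 37 without GFP replicate 2. With all 6 libraries, 435 of 4771 members had an unadjusted p under 0.05 in both comparisons in the same direction, beside 4724 of 44693 transcripts.

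The changed members were mostly present in one state and listed at 0 in the other. Of the 32 that fell, 19 were at 0 TPM in both RBMXL3 libraries. Of the 17 that rose, 11 were at 0 in all 4 controls. In 15 of the 17 every control was under 1 TPM, so these entered through the RBMXL3 libraries alone, and the rule that chose them fixed their direction. Likewise 20 of the 32 were under 1 TPM in both RBMXL3 libraries and entered through the controls alone. For these 35 the values and p-values below are a description. Only 2 of the risers and 12 of the fallers were above 0 in all 6 libraries. A TPM of 0 is an estimate that assigned the reads elsewhere, not a count of no reads. Over all members, 46 were at 0 in both RBMXL3 libraries and at 1 TPM or more in the 4 controls (0.964%, beside 0.839% of all transcripts). The opposite pattern held for 25 (0.524%, beside 0.421%). For GFP against the other 4 libraries the same 2 patterns held for 12 and 9 members (0.181% and 0.201% of all transcripts), and for WT for 6 and 22 (0.112% and 0.32%).

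Few changed members spanned a whole intron. They numbered 3 of the 49 (RPL8-204, BMI1-206 and PSMA1-208), where 35.1% of all members span one. Changed members had a median of 11.1% (higher) and 15.8% (lower) of their length outside coding exons. In some this was a few bases: 6 in PIK3R4-205, 5 in MRPL2-205 and 2 in HSD17B4-218. In others it was most of the length, as in SAMD4B-204 with 79.2%. Calls also followed abundance: with members ranked by mean TPM into 4 sets of equal size, 0, 4, 10 and 35 were called from the lowest set to the highest.

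Among the 17 members that rose, EIF3M-204 had the largest rise. EIF3M encodes a subunit of translation initiation factor eIF3. EIF3M-204, at chr11:32593769-32602302, starts inside an intron and runs across the acceptor shown above. It was listed at 0 TPM in all 4 controls and reached 50.3 and 78.5 TPM in the RBMXL3 libraries (adjusted p = 0.00627 against GFP and 0.00602 against WT). In the same libraries the coding transcript EIF3M-203 made up 45.7% to 49.2% of the gene's TPM in the controls and 34.6% and 28.5% with RBMXL3.

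MDH2-206 had the same pattern. MDH2 encodes mitochondrial malate dehydrogenase of the citric acid cycle, and MDH2-206 ends 97 bases past the donor shown above. It was listed at 0 TPM in every control and reached 29.2 and 31.4 TPM with RBMXL3 (adjusted p = 0.00608 against GFP and 0.00602 against WT), or 13.1% and 13.4% of the gene's TPM. ZNF638-215, from the gene of a nuclear zinc finger protein, was at 0 in the 4 controls and at 11.4 and 22.1 TPM with RBMXL3 (adjusted p = 0.0241 and 0.0226). Another member of that gene, ZNF638-217, went from 32.1% to 39.1% of the gene's TPM in the controls to 15.1% and 10.5%. The 2 RBMXL3 libraries of ZNF638-215 differed more from each other than those of MDH2-206.

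The other risers with the largest changes were at or near 0 in the controls as well. TMEM167A-205, from the gene of a Golgi membrane protein, went from 0 to 7.99 and 13.8 TPM. PIK3R4-205, from the gene of the regulatory subunit of class III phosphoinositide 3-kinase, which acts in autophagy, went from 0 to 9.14 and 9.93 TPM. RAB4A-203, from the gene of a small GTPase of recycling endosomes, was at 0.359 TPM in WT replicate 1, at 0 in the other 3 controls, and at 8.43 and 13.2 TPM with RBMXL3. All 3 became members through the RBMXL3 libraries alone, so that these lie above the controls was fixed by the minimum (adjusted p from 0.0135 to 0.026).

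PSMA1-208 is the only riser that spans a whole intron, the 515-base intron whose ends are shown above. PSMA1 encodes an alpha subunit of the core proteasome. The transcript was at 0 in the 4 controls and at 7.98 and 7.28 TPM with RBMXL3 (adjusted p = 0.0181 in both comparisons), which is 2.69% and 2.60% of the gene's TPM. PLRG1-212, from the gene of a spliceosome protein, went from 0.235 TPM in WT replicate 1 and 0 in the other controls to 11.9 and 5.49 TPM. WDR70-205, from the gene of a WD-repeat protein, went from 0 to 5.97 and 8.46 TPM. DBF4-205, from the gene of the subunit that activates the replication kinase CDC7, went from 0 to 6.11 and 5.14 TPM. Adjusted p for these 3 ran from 0.0235 to 0.0462.

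Only DCTN2-207 and MRPL2-205 rose from a level above 0 in all controls. DCTN2 encodes a subunit of dynactin, the partner of the dynein motor. DCTN2-207 stood at 49.1 and 47.3 TPM (WT), 47.7 and 43.8 (GFP), and 102.5 and 111.9 (RBMXL3). The 4 controls lay close together and both RBMXL3 libraries lay above them, at log2 changes of 1.21 against GFP and 1.13 against WT (SE 0.10 each, adjusted p = 0.0188 and 0.0212). MRPL2-205, from the gene of a mitochondrial ribosomal protein, stood at 20.1, 20.6, 22.5 and 21.1 TPM in the controls. In RBMXL3 it stood at 42.5 and 40.4, at log2 changes of 0.90 and 0.99 (SE 0.10 each). Neither passed the limma test against the rest of its gene, described below. Adjusted p in that test was 0.195 against GFP and 0.142 against WT for DCTN2-207. For MRPL2-205 it was 0.121 and 0.265.

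**Figure D3:**
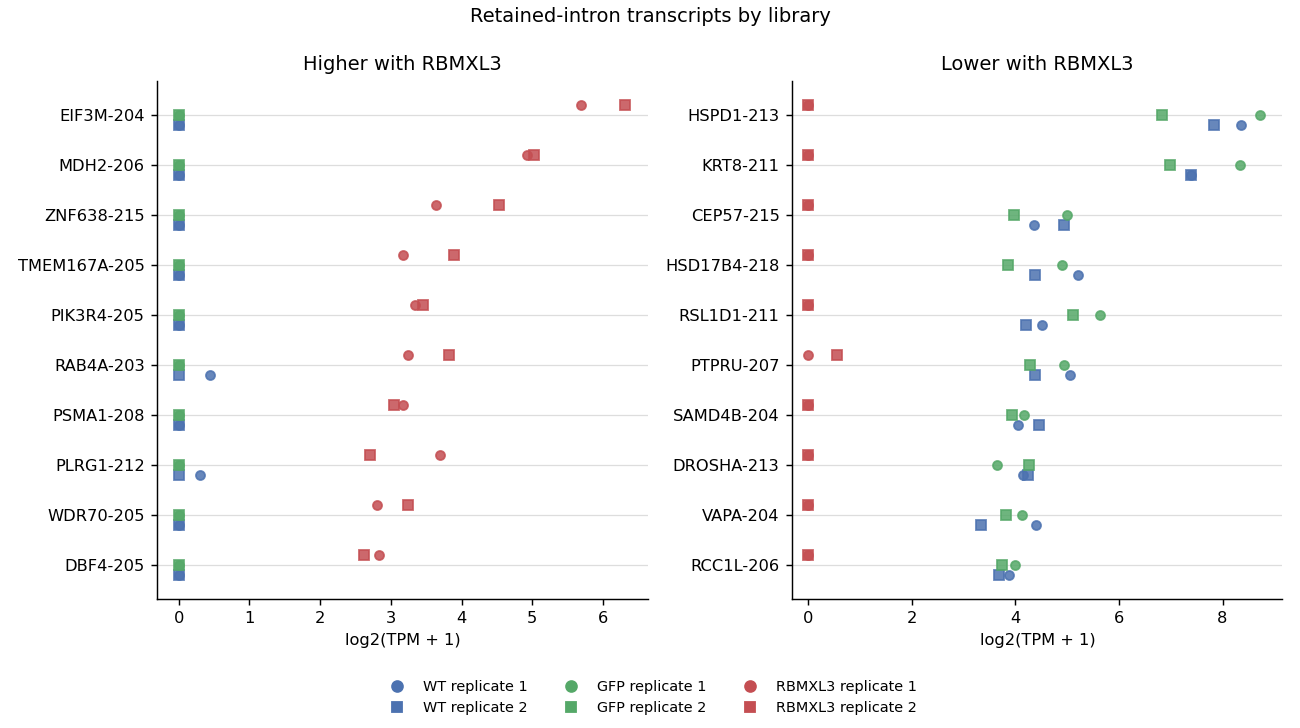
Level of the 10 risers and 10 fallers with the largest changes, as log2(TPM + 1) on the x axis, with 1 mark per library coloured by group. RBMXL3 marks sit alone above 2 on the left and at or next to 0 on the right. HSPD1-213 spans 113 to 421 TPM in the controls.

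Among the 32 members that fell, HSPD1-213 had the highest control levels of those listed at 0 with RBMXL3. HSPD1 encodes the mitochondrial chaperonin. HSPD1-213, at chr2:197494150-197497507, stood at 326 and 228 TPM (WT) and 421 and 113 (GFP), and was listed at 0 in both RBMXL3 libraries (adjusted p = 0.0188 against GFP and 0.0175 against WT). The coding transcript HSPD1-202 went from 62.3% to 87.7% of the gene's TPM in the controls to 97.9% and 98.3%.

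KRT8-211, from the gene of a keratin of simple epithelia, stood at 168 and 167 TPM (WT) and 322 and 126 (GFP), and was listed at 0 in both RBMXL3 libraries (adjusted p = 0.00867 and 0.00957). Reads of the KRT8 gene also fell, by 0.60 and 0.33 on the log2 scale. The KRT8 transcripts with a GENCODE 29 entry carried 11.5% of the reads that the gene-level value calls for, so its share of the gene is not given.

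CEP57-215 comes from the gene of a centrosome protein and ends 129 bases past the donor shown above. It stood at 19.6 and 29.8 TPM (WT) and 31.0 and 14.8 (GFP), and was listed at 0 in both RBMXL3 libraries (adjusted p = 0.024 and 0.0212). DROSHA-213, from the gene of the nuclease that starts microRNA processing, stood at 16.9 and 18.0, 11.6 and 18.2, and 0 and 0 TPM (adjusted p = 0.0111 and 0.00957). Reads of DROSHA fell too, by 0.38 and 0.53 on the log2 scale. CEP57 reads did not pass the test, with log2 changes of 0.27 and 0.25.

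HSD17B4-218, from the gene of a peroxisomal enzyme of fatty acid oxidation, stood at 13.5 to 36.1 TPM in the controls. RSL1D1-211, from the gene of a nucleolar protein, stood at 17.5 to 48.7 TPM, and SAMD4B-204, from the gene of an RNA-binding protein, at 14.3 to 20.9 TPM. VAPA-204, from the gene of a contact-site protein of the endoplasmic reticulum, stood at 9.17 to 20.1 TPM. RCC1L-206, from the gene of a mitochondrial protein, stood at 11.9 to 15.02 TPM. All 5 were listed at 0 in both RBMXL3 libraries, with adjusted p from 0.00608 to 0.031. PTPRU-207, from the gene of a receptor tyrosine phosphatase, stood at 18.5 to 32.3 TPM in the controls and at 0 and 0.481 TPM with RBMXL3.

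The 12 fallers that stayed above 0 in all libraries give sizes. RPL8-204, from the gene of a large-subunit ribosomal protein, was the most abundant. It stood at 1324 and 1147 TPM (WT), 704 and 1046 (GFP), and 138 and 73.0 (RBMXL3). The RBMXL3 libraries lay below all controls, at log2 changes of -3.08 against GFP and -3.61 against WT (SE 0.35 each, adjusted p = 0.0378 and 0.0255). Reads of RPL8 as a gene changed by -0.34 and 0.07 on the log2 scale, which did not pass.

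COL4A1-213, from the gene of a basement membrane collagen, stood at 62.5 and 64.98 TPM (WT), 66.4 and 50.8 (GFP), and 9.08 and 10.7 (RBMXL3). The controls lay within a narrow range and RBMXL3 far below it, at log2 changes of -2.44 and -2.57 (SE 0.17 each, adjusted p = 0.0136 and 0.0113). COL1A2-203, from the gene of a fibrillar collagen chain, stood at 90.5, 64.4, 83.4 and 75.5 TPM in the controls. With RBMXL3 it stood at 30.2 and 30.6, at log2 changes of -1.36 and -1.30. It did not pass the limma test against the rest of its gene (adjusted p = 0.123 against GFP and 0.0938 against WT).

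BMI1-206 keeps the 75-base intron shown above. BMI1 encodes a Polycomb repressor. BMI1-206 stood at 14.4 and 19.8 TPM (WT), 29.4 and 13.9 (GFP), and 1.27 and 1.42 (RBMXL3), at log2 changes of -3.19 and -2.94 (SE 0.38 each, adjusted p = 0.0405 and 0.0424). Reads of BMI1 as a gene rose by 1.73 and 1.34 on the log2 scale. BMI1 transcripts carried 563% of the reads that its gene-level value calls for, so its gene-level value is uncertain. The same figure was 3917% for PSMA1, 2780% for MRPL2 and 11682% for RBM34, whose gene-level values are uncertain too.

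The other 8 of these fallers were MATR3-202 and RBM34-207, from genes of RNA-binding proteins, DHX36-212, from the gene of a helicase, TYRO3-205, from a receptor kinase gene, TARS-205, from a tRNA synthetase gene, CMAS-204, NUP88-209 and VAPA-207. MATR3-202 stood at 25.5 to 27.7 TPM in the controls and at 9.04 and 7.61 with RBMXL3. DHX36-212 stood at 14.4 to 16.7 TPM and then at 3.22 and 4.46. VAPA-207, which made up 64.6% to 67.9% of its gene's TPM in the controls, had the smallest change, from 137.8 to 168.3 TPM down to 81.5 and 80.4 TPM.

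Whether a member changed apart from its gene was tested on log2(TPM + 1) less log2(TPM + 1) of the gene's other transcripts, over 36978 transcripts. Against GFP 49 of 4730 members changed, 14 higher and 35 lower, or 1.04% beside 1.05% of all transcripts (0.446% higher and 0.603% lower). Against WT 43 changed, 14 higher and 29 lower, or 0.909% beside 0.968% (0.411% and 0.557%). The count against GFP was 16 without either WT library, 3 without GFP replicate 1, and 0 without either RBMXL3 library, and the count against WT was 0 without either WT library or either RBMXL3 library. With all 6 libraries, 631 members had an unadjusted p under 0.05 against GFP and 485 against WT. Over the 36978 transcripts the numbers were 5146 and 4800. GFP against WT gave none in limma (0.0% called), where 212 of 4730 members had an unadjusted p under 0.05, beside 1729 of 36978 transcripts. For the same comparison limma's diffSplice called 24 of 4707 members, beside 161 of 36184 transcripts. Against both controls 39 members changed, 13 higher and 26 lower, or 0.825% beside 0.779% (0.325% and 0.454%). With a pseudocount of 0.1 the split was 8 higher and 40 lower, beside 102 and 266 of all transcripts. Against WT it was then 9 higher and 42 lower, beside 144 and 306 of all transcripts. Without 1 library the count of 39 fell in every fit but that without GFP replicate 2, as the count over all transcripts did. With all 6 libraries, 292 of 4730 members had an unadjusted p under 0.05 in both comparisons in the same direction. Over the 36978 transcripts it was 2773. Of the 13 higher in share, 11 were also among the 17 risers in level, all of them under 1 TPM in every control. These 11 entered through the RBMXL3 libraries alone, so their rise in share is a description. Of the 26 lower, 23 were also among the 32 fallers in level, of which 20 entered through the controls alone.

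Shares of the gene's TPM set these members beside the gene's other transcripts. PIK3R4-205, with only 6 of its 680 bases outside coding exons, rose from 0% to 36.3% and 34.5% of the gene's TPM. The coding transcript PIK3R4-201 stood at 67.0% to 93.9% in the controls and at 63.7% and 58.3% with RBMXL3. WDR70-205 rose from 0% to 19.8% and 26.3%, TMEM167A-205 to 11.7% and 20.7%, and DBF4-205 to 16.9% and 14.1%. The adjusted p of these 4 ran from 0.0201 to 0.0373 in limma. All 4 became members through the RBMXL3 libraries alone, so their rise is a description. Reads of PIK3R4 and WDR70 as genes fell, by 0.35 and 0.51 on the log2 scale against GFP.

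CHD1-211 is the whole-intron member with the largest rise in share among those called. CHD1 encodes a chromatin remodelling enzyme, and the 215-base intron with its early stop codon is shown above. CHD1-211 stood at 8.10 and 8.85 TPM (WT), 4.53 and 5.52 (GFP), and 14.1 and 14.8 (RBMXL3). Its share was 13.8%, 17.9%, 9.84% and 13.2% in the controls and 52.1% and 64.7% with RBMXL3 (adjusted p = 0.0296 against GFP and 0.0446 against WT). CHD1-209, a transcript typed as a nonsense-mediated decay target, went from 42.3% to 52.4% in the controls down to 10.8% and 14.5%. The level of CHD1-211 alone changed by 1.36 against GFP and 0.71 against WT on the log2 scale. It missed the threshold against WT (adjusted p = 0.115, limma). CHD1 transcripts with a GENCODE 29 entry carried 31.4% of the reads that its gene-level value calls for, so these shares leave out much of the gene.

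**Figure D4:**
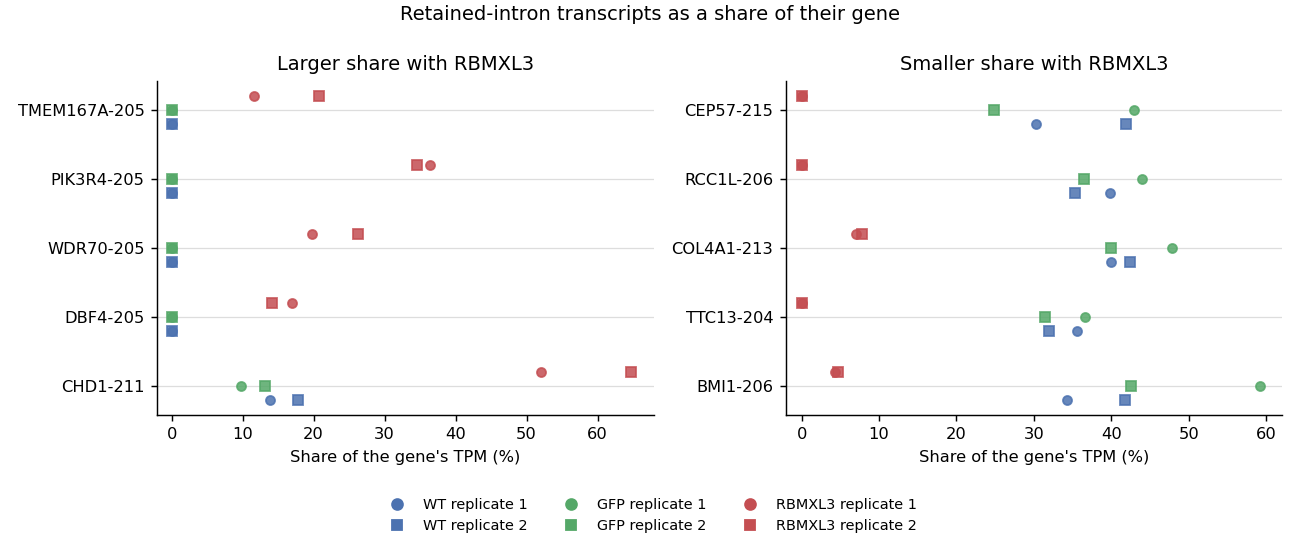
Share of the gene's TPM (x axis, percent) of the 5 members with the largest rise and the 5 with the largest fall in share, with 1 mark per library coloured by group. CHD1-211 reaches 52.1% and 64.7% with RBMXL3, and COL4A1-213 falls to 6.97% and 7.81%.

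CEP57-215 fell from 24.8% to 42.9% of its gene's TPM in the controls to 0%. The coding transcript CEP57-202 stood at 12.04%, 5.84%, 3.71% and 14.3% in the controls and at 70.2% and 73.7% with RBMXL3. COL4A1-213 fell from 39.9%, 42.4%, 47.9% and 39.9% to 6.97% and 7.81%, while COL4A1-201 went from 52.1% to 60.0% in the controls to 92.5% and 92.2%. RCC1L-206 fell from 35.3% to 44.0% to 0%, and RCC1L-201 stood at 53.3% to 62.7% and then at 97.9% and 96.6%. TTC13-204 fell from 31.4% to 36.6% to 0%. BMI1-206 fell from 34.3%, 41.7%, 59.1% and 42.5% to 4.27% and 4.68%, and BMI1-201, which lacks the intron, stood at 21.9% to 44.0% and then at 74.9% and 70.2%. In each of these genes the coding transcript was chosen as the one with the largest opposite change, so its direction is a description.

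**Figure D5:**
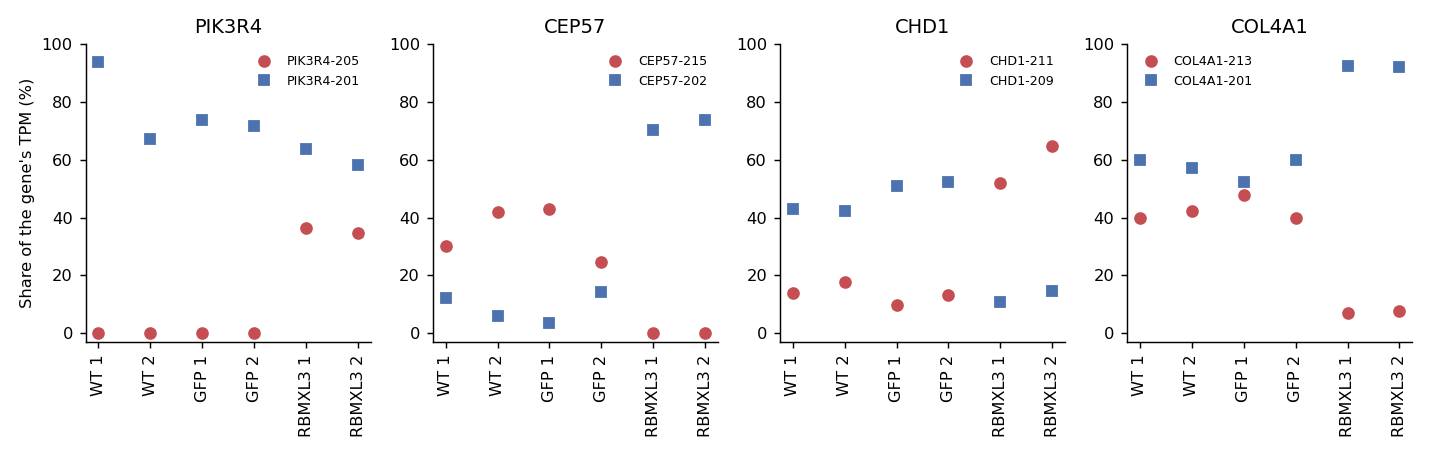
Share of the gene's TPM (y axis, percent) in each library (x axis) of a member (circles) and of the transcript with the largest opposite change (squares) in 4 genes. In CEP57 the partner stands at 70.2% and 73.7% with RBMXL3.

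The 5 members that changed in share but not in level against both controls were CHD1-211, FAT1-206, PKM-208, QARS-219 and RBBP4-216. PKM encodes pyruvate kinase. PKM-208 stood at 138, 103, 182 and 25.02 TPM in the controls and at 0 in both RBMXL3 libraries, with one GFP library far below the other. RBBP4-216, from the gene of a histone-binding protein, was at 2.44 TPM in GFP replicate 1, at 0 in the other controls, and at 26.3 and 32.7 TPM with RBMXL3.

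Host genes were tested on the deposited gene-level values with limma. Of 2747 host genes tested, 458 changed against both controls, 238 higher and 220 lower, or 16.7% beside 13.7% of all genes (6.88% higher and 6.86% lower). With quantile normalization the split was 258 higher and 158 lower, with the gene's summed TPM in place of its reads 135 higher and 48 lower, and edgeR on recovered reads called 430, beside 11.3% of all genes. Among genes with a mean of at least 5, 17.4% of host genes passed beside 15.7% of all genes. The count moved with the library left out, as given at the end. Without either RBMXL3 library the share of host genes lay close to that of all genes. Without either GFP library the shares lay further apart. The host gene passed for 16.9% of the 4664 members whose gene was tested. Of the 17 risers, 14 lay in genes that did not pass and 3 in genes that fell. Of the 32 fallers, 26 lay in genes that did not pass, 3 in genes that fell, 1 in a gene that rose (BMI1) and 2 in genes not tested.

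Members from lists of genes that act on introns were counted beside the 1.03% of all members that changed against both controls. For counts at an unadjusted p under 0.05 in both comparisons, the comparator is 435 of all 4771 members and 4724 of 44693 transcripts. The SR proteins, which promote exon recognition, had 24 members in 10 genes and none passed in limma against both controls, with 3 at an unadjusted p under 0.05 in both. Their summed TPM was 255 and 398 (WT), 397 and 312 (GFP), and 369 and 345 (RBMXL3). The most abundant, SRSF3-206, stood at 81.0, 158, 189 and 136 TPM in the controls and at 142 and 129 in RBMXL3, within the range of the controls. Of the 14 SR protein genes, SRSF1 rose as a gene and none fell, beside 6.88% higher and 6.86% lower of all genes. The CLK kinases, which phosphorylate SR proteins, and other genes known for detained introns had 98 members in 24 genes, and none passed in limma, with 11 at an unadjusted p under 0.05 in both comparisons. DDX5-209, from an RNA helicase gene, stood at 184, 65.5, 27.1 and 68.6 TPM in the controls and at 5.38 and 17.5 in RBMXL3, with the controls spread widely (adjusted p = 0.265 and 0.128). It spans no whole intron, and 0.0% of its length lies outside coding exons. DDX5-215, which spans 1 whole intron, lay the other way. It stood at 20.9, 30.9, 17.4 and 21.7 TPM in the controls and at 40.8 in both RBMXL3 libraries. It did not pass in limma either (adjusted p = 0.112 against GFP and 0.216 against WT). Of the 35 genes of this list, 2 rose and 3 fell as genes.

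Factors that recognise introns had 44 members in 22 genes, and none passed in limma, with 3 at an unadjusted p under 0.05 in both comparisons, and 10 of the 37 genes themselves changed, 2 higher and 8 lower, beside 13.7% of all genes (6.88% higher and 6.86% lower). U2AF1, which binds the acceptor AG, fell by 0.68 against GFP and 0.81 against WT on the log2 scale, and SF3B6 by 0.84 and 0.76. Nuclear surveillance and export genes had 33 members in 15 genes and nonsense-mediated decay factors 11 in 7 genes. None passed in limma, with 3 and 1 at an unadjusted p under 0.05 in both comparisons. Of the 16 decay factor genes, EIF4A3 and MAGOH, both of the exon junction complex, fell and none rose. Of 29 surveillance and export genes tested, 1 rose and 1 fell. The comparator is again 6.88% higher and 6.86% lower of all genes.

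Hosts of small nucleolar RNAs, whose introns carry those RNAs, had 94 members in 22 genes, and 1 passed. NOP58-208 comes from the gene of a core protein of box C/D ribonucleoproteins. It was at 0.26 TPM in WT replicate 2, at 0 in the other controls, and at 5.83 and 5.51 TPM with RBMXL3 (adjusted p = 0.0289 and 0.0286). It became a member through the RBMXL3 libraries alone, which fixed its direction. The median log2 difference of the 94 members was 0.33 against GFP and 0.22 against WT, where all members had 0.22 and 0.10. Of 39 such host genes tested as genes, none rose and 4 fell, beside 6.88% and 6.86% of all genes. No transcript of the RBMX family was a member.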

How the data were processed

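PolyA RNA of 6 TCam-2 libraries was sequenced from stranded libraries, per the labels' protocols. Per the submitters' processing notes, Trim Galore 0.6.10, STAR 2.7.11a, Salmon 1.10.2 and DESeq2 were used with GRCh38, in no stated role. The transcript table deposited by the authors holds TPM, 1 column per library. The gene table deposited by the authors is a normalised signal: reads divided by 1 factor per library. All of its 145320 values above 0 were whole reads within 0.0001, and the recovered reads gave the depths. TPM keeps no depth, so no counting interval is given.

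Transcripts were typed by GENCODE 29, with versions dropped, and 201667 of 251955 had an entry. A share is taken over these entries only. The annotation release the authors used is not given in the sources used here. Introns were gaps of at least 30 bases between exons of coding transcripts. Levels and shares were fitted with limma 3.58.1 (pseudocount 1, all 3 groups in 1 fit, no block), adjusted over all features. A member was called against both controls when both adjusted p were under 0.05 in 1 direction. The edgeR 4.0.16 test on recovered reads was an added alternative for host genes. Members, lists and rules were chosen with earlier results of these data known. Named were the 10 most abundant members, the 10 largest rises and 10 largest falls called, the 5 largest share changes each way, and called members of the lists. Other names were chosen after their values were seen. In data simulated with changes of 1.5 and 4 on the log2 scale, the level test recovered 42.0% and 86.0% and the share test 0.0% and 65.0%, against both controls. The changes were placed only in transcripts whose mean log2(TPM + 1) was above that of 5 TPM. Members had a median mean TPM of 1.69 and an upper quartile of 3.84, so these rates do not cover most members.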

Additional observations from a re-analysis of the deposited data

How the results depend on the processing

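All counts here are members called at an adjusted p under 0.05, unless genes or all transcripts are named. With no filter on low values, levels gave 15 calls against GFP, 19 against WT and 14 against both controls. Shares gave 29 against GFP. Over all transcripts these were 152, 183 and 126 of 130527 for levels and 273 of 99131 for shares. For shares, limma's diffSplice called more (234 against GFP, 196 against WT, 24 for GFP against WT and 120 against both controls). Over all 36184 transcripts it called 1609, 1504, 161 and 889. The arcsine square root of the share called fewer (26, 24 and 21 against GFP, WT and both). Over all 36978 transcripts it called 251, 240 and 183. With the gene's summed TPM in place of its reads, 183 host genes were called, 135 higher and 48 lower, beside 656 of 14296 genes. The other totals, higher and lower together, under a pseudocount of 0.1, a minimum mean TPM, quantile normalization, robust moderation and a minimum change stayed within 1.5 times the total reported.

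Replicate numbers did not pair the libraries: between groups the differences of replicate 1 and 2 correlated at -0.09, -0.02 and 0.00. With a replicate block, levels gave 8 calls against GFP, 10 against WT and 8 against both controls, and shares gave 10, 11 and 9. Over all transcripts levels gave 69, 69 and 62 calls, and shares 92, 94 and 79. Host genes gave 366, beside 1566 of 14292 genes.

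Leaving out 1 library at a time, levels gave 0 to 57 calls against GFP, 0 to 55 against WT and 0 to 37 against both controls, and shares 0 to 69, 0 to 59 and 0 to 44. GFP against WT stayed at 0 in limma. Host genes gave 84 to 697. Where an arm was left with 1 library, that library was assumed to vary like the others. The summed share differed by -0.16 to 0.019 percentage points. Over members that span a whole intron it turned to -0.014 points without EEF1A1-206, a setting chosen after the values were seen. Of the named members' tests that made a call with all libraries, leaving out 1 library lost it in 603 refits and kept it in 117, and the other settings lost it in 239 and kept it in 629. The abundant members named next, none of them called, turned sign. Against GFP without a library, RPS23-203 ran from -0.10 to 0.32, OAZ1-208 from -0.0055 to 0.22 and RPL14-208 from -0.10 to 0.18. Against WT, RPL14-208 ran from -0.011 to 0.15, RPL13-213 from -0.21 to 0.28 and RPL11-205 from -0.19 to 0.25, and with quantile normalization RPL14-208 stood at -0.025 and RPL13-213 at -0.0095. The causes were not tested.

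TPM carries no read depth, so how far a listed 0 reflects few reads cannot be told. With 2 libraries a group, a change must be large and even to pass.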
